A study of Mus musculus with 7 samples.

Results

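The oxidative phosphorylation genes of central nervous system immune cells are described here, in mice with experimental autoimmune encephalomyelitis (EAE). The set comprised every gene whose symbol begins with Nduf, Uqcr, Cox4 to Cox8 or Atp5, the succinate dehydrogenase genes Sdha to Sdhd, and the mitochondrially encoded mt-Nd, mt-Co, mt-Cytb and mt-Atp genes, without Cox6a2. It held 104 of the 27998 genes common to all 7 libraries, 91 encoded in the nucleus and 13 in mitochondrial DNA. EAE is a T cell driven model of multiple sclerosis, induced here in B6 mice with the MOG35-55 peptide of myelin oligodendrocyte glycoprotein. Cells were taken at the peak of disease, from age- and sex-matched animals with matching scores, and were enriched on beads for CD45+ leukocytes or for CD4+ cells before droplet capture. The groups were WT_CD4 with 2 libraries, Lag3KO_CD4 with 2, WT_CD45 with 2 and Lag3KO_CD45 with 1. Lag3 encodes an inhibitory receptor of T cells; the knockout libraries carry the genotype label Lag3Floxed, against Lag3wt in the controls, and the labels name no Cre driver. The labels give 5 mice per group and do not say whether libraries of a group came from separate animals, so p-values measure only the spread between these libraries.

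Oxidative phosphorylation passes electrons from NADH and succinate along the respiratory chain to oxygen, pumps protons across the inner mitochondrial membrane and uses their return to make ATP. Complex I takes electrons from NADH, complex II from succinate, complex III hands them to cytochrome c, complex IV reduces oxygen, and complex V is the ATP synthase. Subunits of complexes I, III, IV and V come from both genomes, whereas complex II is wholly nuclear. Activated T cells, B cells, macrophages and dendritic cells are known to differ in how far they rely on this pathway.

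Lag3 itself gave 289 and 107 UMIs (counted molecules) in the WT_CD4 libraries, 1 and 0 in Lag3KO_CD4, and 2 in Lag3KO_CD45 1. It gave 304 in WT_CD45 1 but 4 in the other WT_CD45 library, which goes against its label. That library is called the library labelled WT_CD45 2, and its values are printed separately. Counts of called genes and the main summed ratios are also given without it, with 2 exceptions. For the cycling contrast only a range over the libraries left out is given, and in the CD45 genotype contrasts of single classes no library was left out. The CD4 libraries held 4585251 to 5777728 UMIs, with medians of 2087 to 2600 per barcode, and the CD45 libraries 16050069 to 18940186, with medians of 5680 to 6405. Bead selection, depth and gene file differed together between the CD4 and CD45 libraries and cannot be told apart. Of 13922 barcode sequences, 103 occurred in more than 1 library. All UMIs of mt- genes belonged to the 13 members, so the usual limit of 10% mt- UMIs per barcode acts on them directly; it removed 24 to 112 barcodes per CD4 library and 0 to 2 per CD45 library.

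Barcodes were clustered without the 104 genes and named from markers, so that each class is "like" a cell type. In each CD45 library 9 classes had at least 20 barcodes: Tconv-like (conventional CD4 T), Treg-like (regulatory T), NK-like, B-like, pDC-like (plasmacytoid dendritic), cDC1-like, cDC2-like or monocyte-derived DC-like, migratory DC-like and monocyte-like or macrophage-like. In the CD4 libraries, Tconv-like, Treg-like, microglia-like, monocyte-like or macrophage-like and neutrophil-like classes qualified. B-like barcodes held 7186 to 8187 counts per 1000000 UMIs (CPM) of the 6 B cell markers, with 6 of 6 detected, against 34.3 to 48.4 in Tconv-like barcodes. pDC-like barcodes held 8206 to 9635 of the pDC list, with 8 of 8 detected. They also held 4676 to 5216 CPM of the B cell list, nearly all of it Ly6d at 4590.2 to 5096, which B-like barcodes held at 1749 to 2324. Cd79a was at 8.60 to 40.2 in pDC-like against 2177 to 2569 in B-like barcodes. Monocyte or macrophage markers reached 10190.2 to 11816 CPM in pDC-like and 2574 to 3778 in B-like barcodes, against 36779 to 41318 in the monocyte-like or macrophage-like class; their part in the values below was not tested.

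The 91 nuclear members comprised 38 complex I genes, 7 complex I assembly factors (Ndufaf), 4 complex II, 8 complex III, 17 complex IV and 17 complex V genes. By function Ndufa4 is known as a complex IV-associated protein, and Atp5sl, named Dmac2 in the annotation of the same build, is a complex I assembly factor and no ATP synthase subunit. The 13 mt- members were 7 complex I, 1 complex III, 3 complex IV and 2 complex V genes. In all, 99 members gave a UMI in every library. The 5 members under 100 UMIs in all 7 libraries together were the restricted isoforms Cox7b2 with 0, Cox8c with 1, Cox8b with 13, Ndufa4l2 with 23 and Cox4i2 with 43. Reads shared with processed pseudogenes, which several members have (Uqcrh-ps, Atp5k-ps, Atp5l-ps and others), could be counted either way, and how they were treated is not given in the sources used here.

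Promoter sequences from RefSeq (build GRCm38.p6) were matched to 73 of the 91 nuclear members. The letters GCGCATGCG, from the palindrome bound by nuclear respiratory factor 1 (NRF1), a known activator of respiratory chain genes, occurred in the 300-base window around the start of 10 of 73 members (13.7%) against 1.95% of 27025 genes. With any 2 middle bases, GCGCNNGCG, they occurred in 31 of 73 members (42.5%) against 13.5% of 27025 genes; this pattern contains the first. The ETS-type site CCGGAAGT, bound by GABP among others, was found in 5 of 73 members (6.85%) against 4.31% of 27025 genes, AAGATGGCG (YY1-type) in 7 of 73 members (9.59%) against 1.64% of 27025 genes, and the cyclic AMP response element TGACGTCA in 4 of 73 members (5.48%) against 2.03% of 27025 genes. These NRF1 and YY1 letters are shorter forms of motifs searched first, taken after the matches of the longer forms had been seen. Both strands were searched, and a match is only a match of letters. The 250 bases before the start are shown for 4 members whose differences between classes the results turn on, chosen after their values were seen: Sdhd, called higher than in Tconv-like barcodes in 4 of 8 classes; Uqcrh, lower in cDC1-like barcodes; Ndufa4, lowest in migratory DC-like barcodes; and Ndufa1, lowest in B-like barcodes. All lie on the minus strand and read 5′ to 3′, and capitals mark overlapping GCGCNNGCG matches on both strands in Sdhd and the ETS-type match, on the other strand, in Uqcrh; neither Ndufa4 nor Ndufa1 held any of the motifs searched in this window.
Sdhd (chr9:50603850-50604099): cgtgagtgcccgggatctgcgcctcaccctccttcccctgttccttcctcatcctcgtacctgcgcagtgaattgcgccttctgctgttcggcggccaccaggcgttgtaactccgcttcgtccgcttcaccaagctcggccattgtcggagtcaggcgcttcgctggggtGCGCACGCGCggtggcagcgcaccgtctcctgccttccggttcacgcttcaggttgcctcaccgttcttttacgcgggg
Uqcrh (chr4:116075071-116075320): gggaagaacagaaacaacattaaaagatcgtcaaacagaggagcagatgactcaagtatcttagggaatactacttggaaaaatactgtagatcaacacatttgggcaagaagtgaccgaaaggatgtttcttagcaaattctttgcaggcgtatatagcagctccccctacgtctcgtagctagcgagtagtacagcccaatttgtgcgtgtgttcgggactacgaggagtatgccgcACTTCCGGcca
Ndufa4 (chr6:11907451-11907700): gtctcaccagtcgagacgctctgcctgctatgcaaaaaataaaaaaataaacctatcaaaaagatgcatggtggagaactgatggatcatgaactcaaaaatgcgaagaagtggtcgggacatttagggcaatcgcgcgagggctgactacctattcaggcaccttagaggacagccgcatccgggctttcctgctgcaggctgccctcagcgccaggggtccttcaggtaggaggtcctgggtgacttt
Ndufa1 (chrX:37191239-37191488): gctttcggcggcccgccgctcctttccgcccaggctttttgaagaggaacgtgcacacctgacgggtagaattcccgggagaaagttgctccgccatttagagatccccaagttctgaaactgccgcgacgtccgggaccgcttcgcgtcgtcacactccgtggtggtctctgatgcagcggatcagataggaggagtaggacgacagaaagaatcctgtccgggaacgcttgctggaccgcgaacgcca

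The nuclear and the mitochondrial parts of the pathway did not follow each other in every cell class. Levels are CPM, relative to all UMIs of a class in a library, listed for the CD45 libraries in the order WT_CD45 1, labelled WT_CD45 2 and Lag3KO_CD45 1, and for the CD4 libraries in the order WT_CD4 1, WT_CD4 2, Lag3KO_CD4 1 and Lag3KO_CD4 2. The 13 mt- members summed to 32545, 32108 and 30761 in B-like barcodes and to 32359, 30629.9 and 32848 in pDC-like barcodes. Tconv-like barcodes held 21183, 21550.3 and 21419.5, and migratory DC-like barcodes, the lowest class, 13230.2, 13710.3 and 13819. All 6 values of the B-like and pDC-like classes lay above every value of the other 7 classes of the CD45 libraries, which ran from 13230 to 21550. The mt- level also differed between the selections: Tconv-like barcodes of the CD4 libraries held 29233, 27257, 28761 and 27936. Classes are therefore compared within a selection.

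For the 91 nuclear members the order was different in the B-like, pDC-like and Treg-like classes. Means of the other classes fell in nearly the same order in both parts. They ran from Tconv-like (29083 nuclear, 21384 mt-) to migratory DC-like barcodes (21638 and 13586.5). Treg-like barcodes summed to 30870.5, 29341 and 33072, Tconv-like to 27499.5, 28929 and 30821, and B-like to 20476, 19275 and 21491. The B-like class, high in mt- transcripts, thus had the lowest mean nuclear level, 20414 ± 1109 (SD, n = 3), although its range overlapped that of the migratory DC-like class (21852, 20580.4 and 22482). The ratio of mt- to nuclear UMIs was 1.56 ± 0.12 in B-like barcodes, 1.17 in pDC-like barcodes on average, and 0.58 to 0.74 in the other 7 classes. A ratio above 1 was not particular to the B-like and pDC-like classes. The 26 microglia-like barcodes of Lag3KO_CD45 1, a class too small in the other CD45 libraries, held 22434 (nuclear) and 25415 (mt-), a ratio of 1.13. Relative to Tconv-like barcodes of the same library, the B-like class differed by -0.51 ± 0.08 (log2, SD, n = 3) in the nuclear and 0.57 ± 0.05 in the mt- sum. The pDC-like class differed by -0.09 ± 0.07 and 0.58 ± 0.06, and the migratory DC-like class was lower in both, with log2 differences of -0.43 ± 0.08 and -0.65 ± 0.02. Without the library labelled WT_CD45 2 these means were -0.47 and 0.57, -0.07 and 0.61, and -0.39 and -0.66 (n = 2). These sums depend on what else a cell transcribes: ribosomal protein genes took 41.4% of UMIs in B-like, 30.3% in Tconv-like and 18.3% in migratory DC-like barcodes, and their part was not tested. With mt- and ribosomal protein genes left out of the denominator, the B-like differences were -0.23 (nuclear) and 0.86 (mt-), with the directions kept. The migratory DC-like ones were -0.68 and -0.90. The B-like nuclear sums were then 35831, 35384 and 39307, above 27318, 25714 and 27789 in migratory DC-like barcodes. In each library they also lay above the cDC2-like or monocyte-derived DC-like and the monocyte-like or macrophage-like class. The lowest rank of the B-like class thus rests on the denominator.

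**Figure D1:**
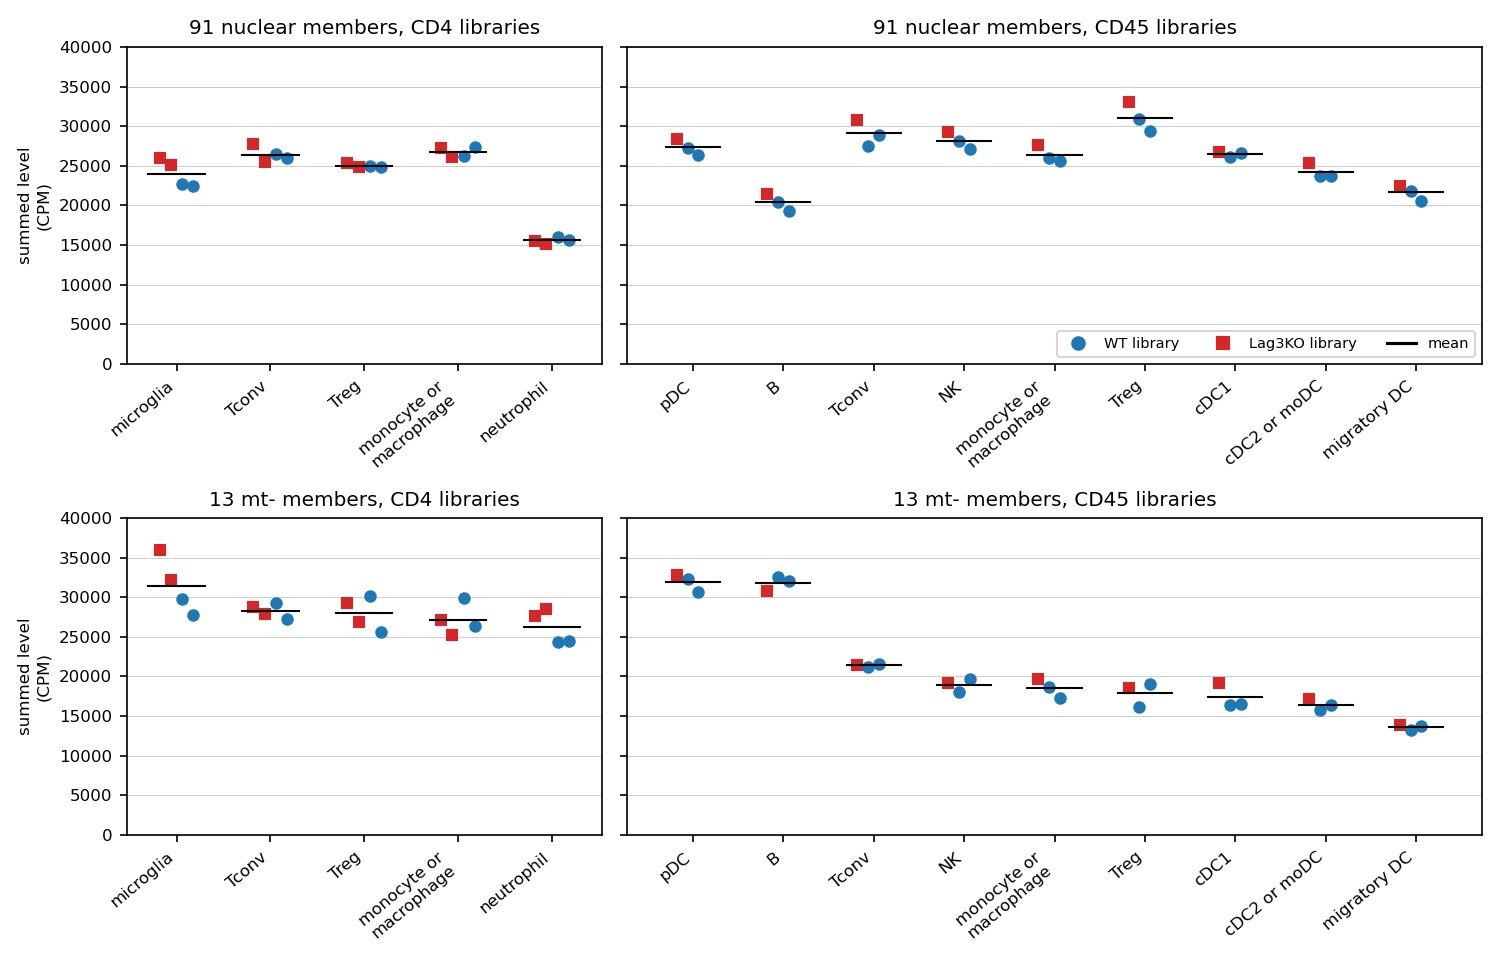
Summed level of the 91 nuclear members (top) and the 13 mt- members (bottom), in CPM, for each class; points are libraries, squares the Lag3KO and circles the WT libraries, and bars the mean over libraries. B-like and pDC-like barcodes of the CD45 libraries lie between 30630 and 32848 CPM for the mt- members, above the other classes of the same libraries. For the nuclear members B-like barcodes are lowest on average there, a rank that rests on the denominator.

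Within complexes the split was the same. Nuclear complex I subunits summed to 5988 ± 104 CPM (SD, n = 3) in B-like against 8857 ± 578 in Tconv-like barcodes, while the mt- complex I subunits summed to 5415 ± 435 against 3734 ± 135. For complex IV the nuclear sums were 6151 ± 503 and 8590.5 ± 573, and the mt- sums 16974 ± 189 and 11234 ± 233. As shares of all UMIs, the 2 genomes' parts of one complex therefore differed in opposite directions, beyond the spread of the 3 libraries. In fits of single genes by library size alone (edgeR), the B-like median over all genes was itself -0.40 (log2). It was -0.58 for nuclear complex I and -0.64 for nuclear complex IV subunits, against 0.62 and 0.57 for the mt- subunits. Part of the lower nuclear level was thus shared with the median gene and not particular to these complexes. In pDC-like barcodes the mt- complex IV sum was 17420.4 ± 557, and the nuclear complex IV sum 7694 ± 65.3.

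Each member was then tested between classes within the 3 CD45 libraries (edgeR on summed counts, library as a block, adjusted p under 0.05 over 6295 genes). Of the 104 members, 80 nuclear and 11 mt- passed the filter on low counts; Tconv-like barcodes were the reference of every contrast, so the contrasts share them. In B-like barcodes 10 of 11 mt- members were higher and 0 lower, with a median of 0.96, whereas 4 nuclear members were higher and 20 lower, with a median of -0.21; 25.3% of all genes were called, 13.2% higher and 12% lower. In pDC-like barcodes 8 mt- members were higher and 0 lower (median 0.54), and 7 nuclear members were higher and 21 lower, beside 40.7% of all genes, 20.4% higher and 20.2% lower. The medians over all genes ran from -0.07 to 0.04 in the 8 contrasts, since the scaling used centres the bulk of genes.

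The other classes had no mt- member higher than Tconv-like barcodes, apart from the monocyte-like or macrophage-like class with 2 (mt-Co2 and mt-Nd4). There, 26 nuclear members were higher and 12 lower (median 0.12), 3 mt- members lower, and 60.1% of all genes called, 31.2% higher and 28.8% lower. With mt- and ribosomal protein genes left out of the scaling these counts became 18 and 13, with 0 mt- members higher and 3 lower, and the summed nuclear level relative to Tconv-like barcodes was -0.14 ± 0.05 (log2 ratio of shares, SD, n = 3), so the balance of this class rests on the scaling. Migratory DC-like barcodes had 10 nuclear members higher and 26 lower and 7 mt- members lower (54.1% of genes called, 29.2% higher and 24.9% lower), or 6, 30 and 8 with the other scaling. cDC2-like or monocyte-derived DC-like barcodes had 13 higher, 17 lower and 6 mt- lower (50.1%, 26.9% higher and 23.2% lower), or 9, 21 and 8. cDC1-like barcodes had 17 higher, 9 lower and 3 mt- lower (43.4%, 23.9% higher and 19.5% lower), or 12, 12 and 6. In these 4 classes the share of members called in the main fit was below that of all genes. Shares over all genes are not given for the other scaling, here or below. Its counts of members therefore have no such background, and whether members shift more than other genes there cannot be judged. NK-like barcodes stood closest to Tconv-like ones, with 1 nuclear member higher (Cox8a, 0.38), 2 lower (Uqcr10 and Cox6c) and 0 of 11 mt- members called (3 at an unadjusted p under 0.05), where 7.48% of genes were called, 3.24% higher and 4.24% lower. Each of the 3 nuclear calls was lost without the library labelled WT_CD45 2, where mt-Co2 and mt-Co3 were called lower instead. With the other scaling NK-like barcodes had 1 nuclear member higher, 3 lower and 2 mt- members lower, and 6 members were called without the limit on mt- UMIs per barcode.

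The balance of higher and lower members depended on the scaling. The fitted differences use TMM factors (trimmed mean of M-values), whereas CPM are shares of all UMIs, so a fitted difference and the CPM beside it can point in opposite directions. Without TMM factors, a setting added after the data were seen, the median over all genes was -0.40 in B-like, -0.31 in migratory DC-like, -0.26 in monocyte-like or macrophage-like, -0.22 in cDC2-like or monocyte-derived DC-like, -0.16 in cDC1-like, -0.10 in NK-like, 0.06 in Treg-like and 0.02 in pDC-like barcodes. B-like barcodes then had 0 nuclear members higher and 46 lower, beside 8.74% of genes higher and 24.2% lower, and the mt- count stayed at 10 higher. pDC-like barcodes had 7 and 20, beside 21% of genes higher and 19.9% lower, with 8 mt- members higher as before. The higher level of mt- members in B-like and pDC-like barcodes thus held under each of the 3 scalings. The excess of higher nuclear members in the monocyte-like or macrophage-like class did not. There 9 were higher and 29 lower, beside 23.9% of genes higher and 41.1% lower, with 0 mt- members higher and 6 lower. The genes mt-Co2 and mt-Nd4 were at -0.08, edgeR adjusted p = 0.372, and -0.05, edgeR adjusted p = 0.550. Migratory DC-like barcodes had 2 and 52, with 10 mt- members lower (22.1% of genes higher and 36.7% lower). In the same order, the class called cDC2-like or monocyte-derived DC-like had 4, 36 and 11 (21.9% of genes higher and 33.6% lower), and cDC1-like barcodes 7, 20 and 9 (19.7% of genes higher and 26.3% lower). NK-like barcodes had 1, 3 and 2 (3.24% of genes higher and 4.77% lower), and Treg-like barcodes 6, 2 and 5 (5.18% of genes higher and 3.7% lower). Over all 11 contrasts between classes or ranges described here, 221 member calls kept their sign and call without TMM, 63 kept the sign without a call and 13 had the opposite sign without a call. Calls below are with TMM unless stated.

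**Figure D2:**
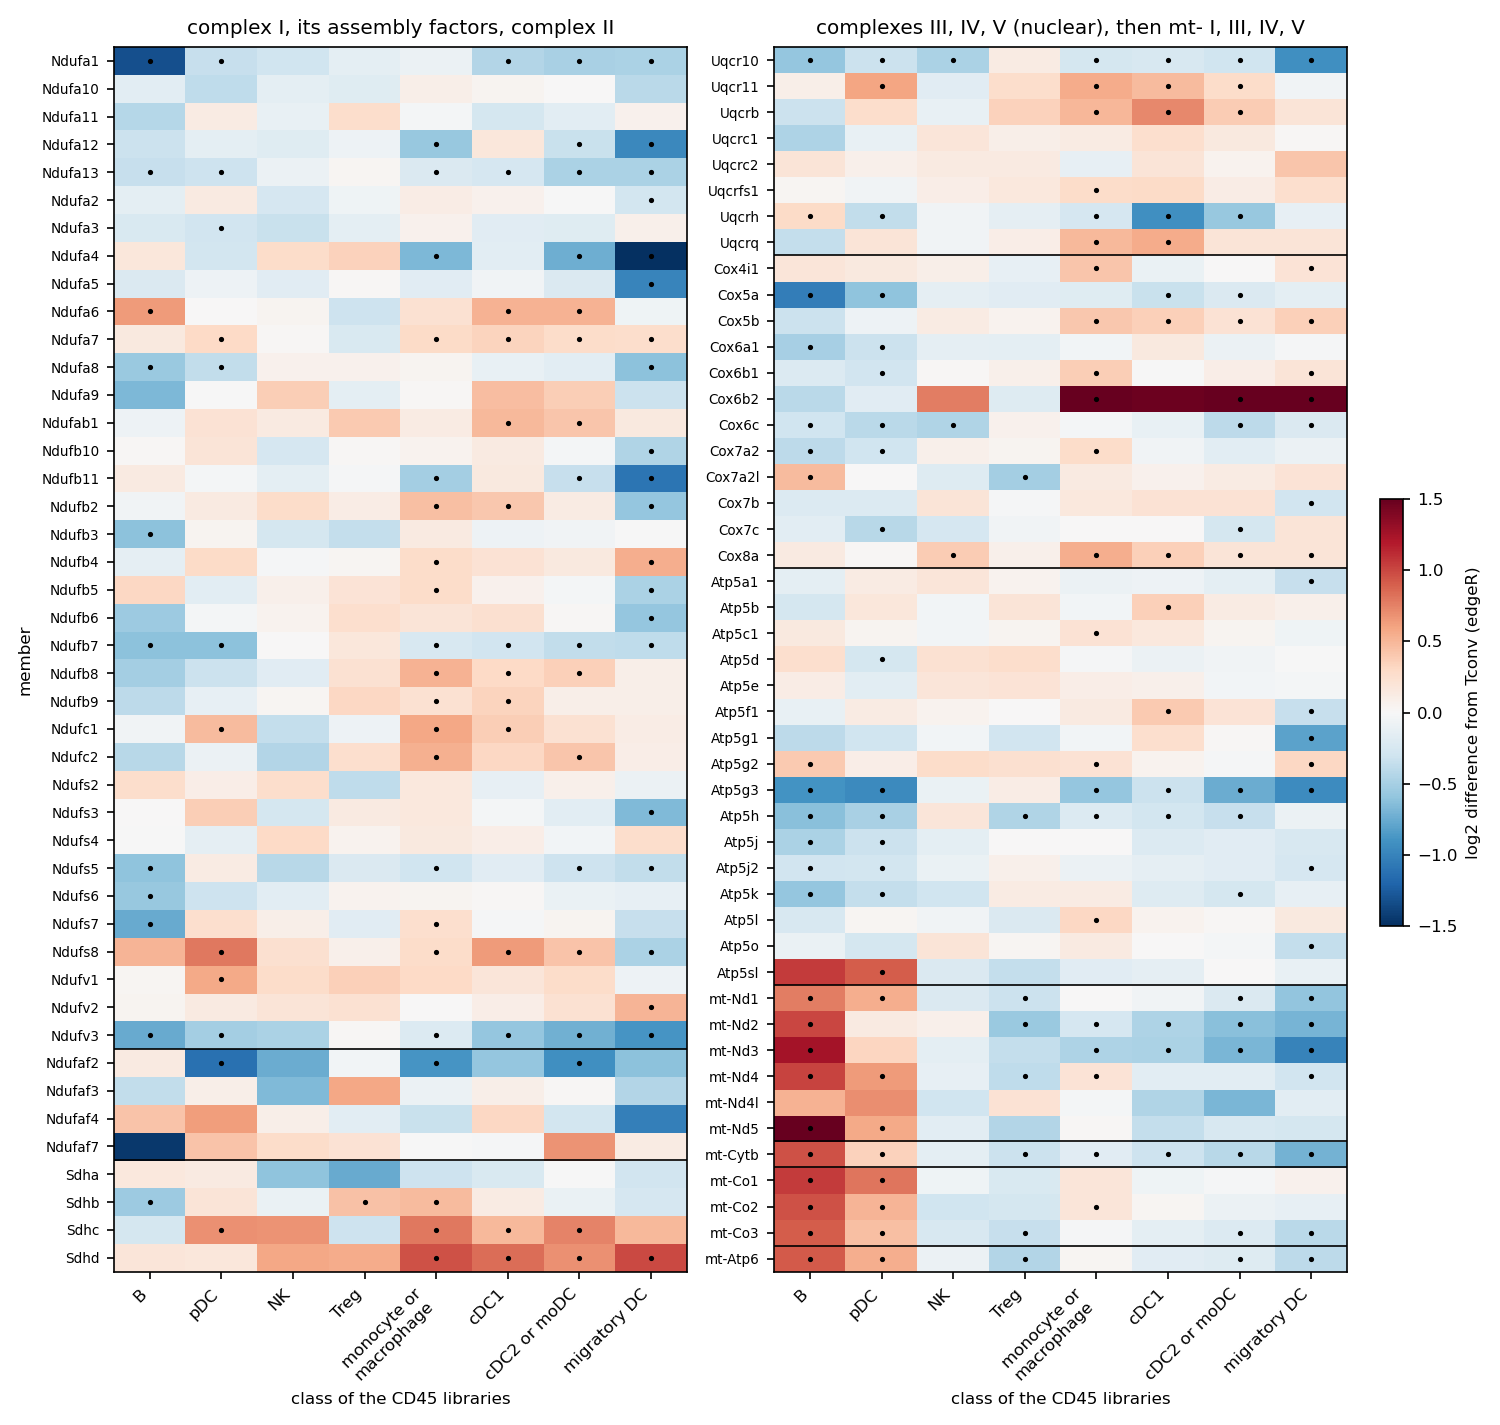
Log2 difference from Tconv-like barcodes (edgeR with TMM) for the 91 members that passed the filter in the CD45 libraries, by class; dots mark adjusted p under 0.05, and lines separate complexes. The mt- rows are red in the B-like and pDC-like columns and mostly blue in the Treg-like and dendritic cell-like columns, while nuclear rows differ in sign within a column.

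Among the mt- complex I subunits, mt-Nd5 gave the largest difference of B-like barcodes, 304, 214 and 196 CPM against 134, 94.7 and 98.6 in Tconv-like barcodes. The 2 classes did not overlap, and the fitted log2 difference was 1.5 (SE 0.19, edgeR adjusted p = 3.33e-08). mt-Nd3 was at 267, 293 and 201 against 148, 153 and 112, a difference of 1.24 (SE 0.20, edgeR adjusted p = 2.68e-06), and at 52.0, 63.5 and 50.4 in migratory DC-like barcodes, a difference of -1.0 (SE 0.22, edgeR adjusted p = 0.000216). With a ratio of 4.59 between its highest and lowest class mean, mt-Nd3 was one of the 2 most variable members among those above 50 CPM. mt-Nd1, mt-Nd2 and mt-Nd4 were higher in B-like barcodes by 0.76, 1.01 and 1.02. In pDC-like barcodes mt-Nd1 was at 2953, 2839.5 and 3115 against 1928, 2036 and 2059, a difference of 0.54 (SE 0.08, edgeR adjusted p = 1.71e-07), and mt-Nd2 was not called (462, 484 and 448 against 454, 459.5 and 335). mt-Nd4l, which lies on 1 transcript with mt-Nd4, stayed at or below 68.9 CPM in the 9 classes and was not called in any of the 8 contrasts. Without TMM it was lower in the cDC2-like or monocyte-derived DC-like class (-0.90, edgeR adjusted p = 0.0135). mt-Nd6, encoded on the opposite strand from the other 12 (chrM, 13552 to 14070 in GRCm38) and overlapping the end of mt-Nd5, gave 654 UMIs in all libraries and was not tested between these classes.

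The mt- transcripts of complexes III, IV and V were also higher in B-like and pDC-like barcodes. mt-Cytb, the only mitochondrial subunit of complex III, was at 3244, 3209.7 and 2931 in B-like, 1979.8, 2134 and 2158 in Tconv-like and 942, 1002 and 1077 in migratory DC-like barcodes. These 3 classes did not overlap, with differences from Tconv-like of 0.96 (SE 0.08, edgeR adjusted p = 5.58e-13) and -0.71 (SE 0.08, edgeR adjusted p = 7.39e-10). mt-Co1, the catalytic subunit of complex IV, was at 7016, 7378 and 7142 in B-like and 8213, 7567 and 8194 in pDC-like barcodes, against 4453, 4459 and 4632 in Tconv-like ones. Both classes lay above all others, with differences of 1.05 and 0.80. In migratory DC-like barcodes mt-Co1 (3662, 3943 and 3515) was called lower without TMM (-0.30, edgeR adjusted p = 0.00164) but not with it, and mt-Co3 was lower, with a log2 difference of -0.41, adjusted p = 3.86e-05 (edgeR). mt-Co2 and mt-Co3 were higher in B-like barcodes by 0.96 and 0.91, and mt-Atp6, a proton channel subunit of the ATP synthase, by 0.92 (6688, 5991 and 6128 against 4492, 4214 and 4232). mt-Atp8, the other mitochondrial subunit of complex V, stayed between 0 and 39.5 CPM and did not pass the filter. In each of the 9 classes mt-Co3, mt-Co1 and mt-Atp6 were the 3 most abundant mt- members and made up 65.4% to 68.9% of mt- UMIs.

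Nuclear members varied less. Among the 75 nuclear members above 50 CPM in some class, the median ratio of highest to lowest class mean was 1.99, and 38 were under 2; for the 11 mt- members so defined it was 2.82, with 0 under 2. Cox4i1, the main isoform of complex IV subunit 4, was the least variable, with class means from 1085 in cDC1-like to 1459.9 in monocyte-like or macrophage-like barcodes, a ratio of 1.35. Atp5g2, one of the genes for the membrane ring of the ATP synthase, followed with 1.45. Ndufa4 was the most variable, with 5.13.

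**Figure D3:**
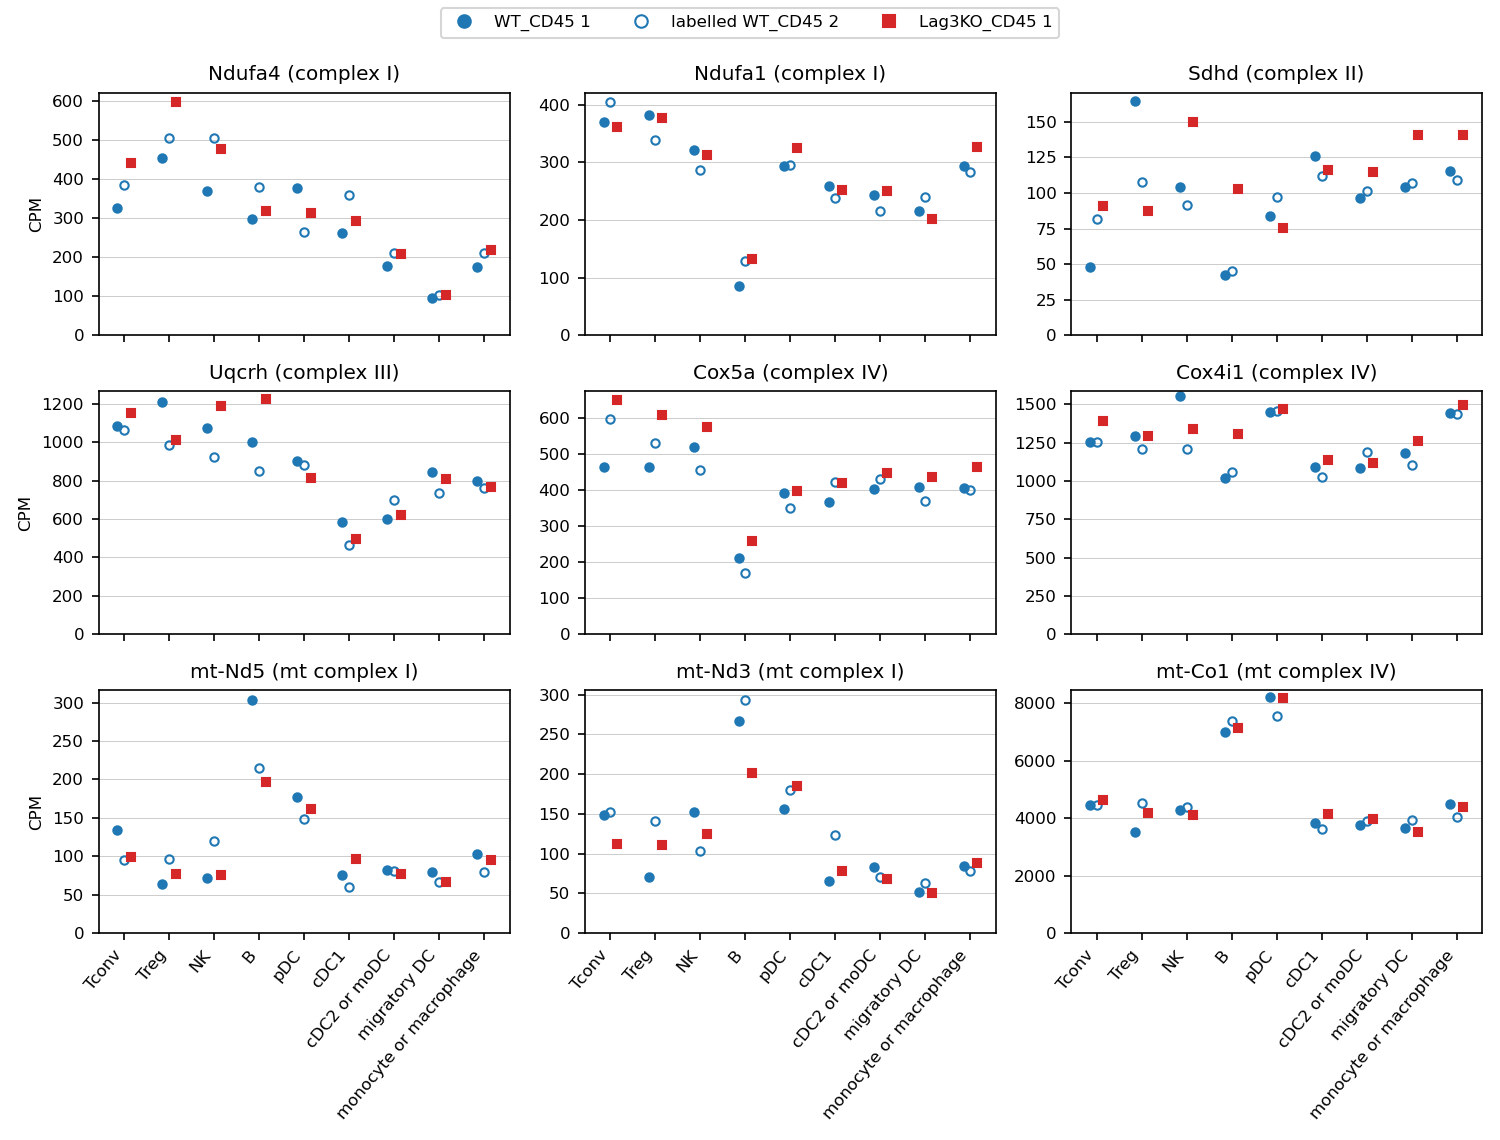
Level of 9 members (CPM, from 0) in the 9 classes of the CD45 libraries; filled circles are WT_CD45 1, open circles the library labelled WT_CD45 2 and squares Lag3KO_CD45 1. Ndufa4 is lowest in migratory DC-like barcodes, Ndufa1 and Cox5a in B-like barcodes and Uqcrh in cDC1-like barcodes, Cox4i1 stays between 1020 and 1558, and mt-Nd5, mt-Nd3 and mt-Co1 are high in B-like barcodes.

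Of complex I, migratory DC-like barcodes had 17 of 36 nuclear subunits lower and 3 higher, in a contrast with 24.9% of all genes lower and 29.2% higher, and without TMM 25 lower and 0 higher. Ndufa4 was at 96.0, 104 and 103 CPM there, 175, 212 and 217 in monocyte-like or macrophage-like, 325, 384 and 441 in Tconv-like and 452, 503 and 595 in Treg-like barcodes. The migratory DC-like values lay below those of every other class, and the difference from Tconv-like barcodes was -1.57 (SE 0.15, edgeR adjusted p = 1.4e-11). The monocyte-like or macrophage-like class differed by -0.67 (SE 0.10, edgeR adjusted p = 2.44e-07) and the cDC2-like or monocyte-derived DC-like class, with a log2 difference of -0.73 (SE 0.11, edgeR adjusted p = 6.57e-07). Ndufb11, a subunit of the membrane arm, was at 128, 117 and 134 in migratory DC-like against 336, 330.4 and 368 in Tconv-like barcodes, without overlap, a difference of -1.10 (SE 0.13, edgeR adjusted p = 1.26e-09). Ndufa5, Ndufa12 and Ndufv3 were lower there, with log2 differences of -0.99, -0.97 and -0.89, whereas Ndufb4 was higher by 0.54, a call lost without the library labelled WT_CD45 2 (0.32, adjusted p = 0.18) and without TMM (0.19, edgeR adjusted p = 0.207). Ndufv3, a small subunit of the NADH-binding module, was lower than in Tconv-like barcodes in 6 of the 8 classes.

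In B-like barcodes Ndufa1, a membrane arm subunit needed for complex I assembly, was at 85.0, 129.7 and 132 against 369.9, 405 and 361 in Tconv-like barcodes. No other class fell into the B-like range, and the difference was -1.32 (SE 0.17, edgeR adjusted p = 4.55e-08). Ndufv3 (-0.76), Ndufb7 (-0.61) and Ndufs7 (-0.76) were also lower; Ndufs7 lost its call without Lag3KO_CD45 1 (-0.59, adjusted p = 0.20). Ndufa6 was the single complex I member higher in B-like barcodes, at 516, 536 and 509.8 against 452, 351 and 525, where the library labelled WT_CD45 2 held the lowest Tconv-like value. The difference was 0.63 (SE 0.14, edgeR adjusted p = 0.000685). It was not called without TMM (0.25, edgeR adjusted p = 0.175) or without that library (0.33, edgeR adjusted p = 0.229). Ndufa6 was also higher in cDC1-like and in cDC2-like or monocyte-derived DC-like barcodes, by 0.52 and 0.52, and both calls were lost without that library (0.30, adjusted p = 0.17, and 0.33, adjusted p = 0.095). Ndufs8, an iron-sulfur subunit, was at 246, 229 and 271 in pDC-like against 123, 126 and 179 in Tconv-like barcodes, a difference of 0.79 (SE 0.15, edgeR adjusted p = 2.41e-05) without overlap. Of the assembly factors 4 of 7 were tested, and Ndufaf2 was lower in pDC-like, cDC2-like or monocyte-derived DC-like and monocyte-like or macrophage-like barcodes, with log2 differences of -1.12, -0.92 and -0.88; all 3 calls were lost without Lag3KO_CD45 1, with adjusted p of 0.22, 0.063 and 0.066.

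In complex II, the only complex without a mitochondrial subunit, the membrane anchor genes Sdhd and Sdhc were each called higher than in Tconv-like barcodes in 4 of 8 classes, and Sdha and Sdhb showed no such pattern. Sdhd, which with Sdhc anchors the enzyme in the inner membrane, was at 48.2, 81.7 and 91.1 CPM in Tconv-like and 115, 109 and 141 in monocyte-like or macrophage-like barcodes. WT_CD45 1 had the lowest Tconv-like value, and the classes did not overlap; the difference was 0.95 (SE 0.15, edgeR adjusted p = 1.24e-06). Migratory DC-like (104, 107 and 141) and cDC1-like barcodes (126, 112 and 116) lay above the Tconv-like values too, with 0.99 (SE 0.21, edgeR adjusted p = 8.83e-05) and 0.84 (SE 0.20, edgeR adjusted p = 0.000523), and the cDC2-like or monocyte-derived DC-like class with 0.68 (SE 0.18, edgeR adjusted p = 0.00141). NK-like (104, 91.5 and 150.1) and Treg-like barcodes (164, 108 and 87.1) had means as high, with 0.59 (SE 0.30, edgeR adjusted p = 0.322) and 0.56 (SE 0.24, edgeR adjusted p = 0.168), neither called, so the higher level was not particular to the myeloid-like classes. Sdhc was at 75.5, 75.5 and 84.6 in monocyte-like or macrophage-like against 53.6, 50.9 and 59.5 in Tconv-like barcodes, higher by 0.79, and was higher by 0.75 in the cDC2-like or monocyte-derived DC-like class. In cDC1-like barcodes it was higher by 0.49, a call lost without TMM (0.31, edgeR adjusted p = 0.208) and without the library labelled WT_CD45 2 (0.20, edgeR adjusted p = 0.616). In pDC-like barcodes Sdhc was higher by 0.68, a call lost without the library labelled WT_CD45 2 (0.56, adjusted p = 0.085). Sdha, the flavoprotein that oxidises succinate, was called in none of the 8 contrasts by edgeR with TMM, and lower in the migratory DC-like and the monocyte-like or macrophage-like class without it (-0.64, edgeR adjusted p = 0.0289, and -0.57, edgeR adjusted p = 0.00471); it stayed within 26.7 to 119.9 CPM. The iron-sulfur subunit Sdhb was the most abundant complex II gene in Tconv-like (208) and monocyte-like or macrophage-like barcodes (243, higher by 0.47, adjusted p = 0.000153 by edgeR, but 0.21, edgeR adjusted p = 0.0796 without TMM). It was lower in B-like barcodes (-0.55, SE 0.20, edgeR adjusted p = 0.0391), a call lost without the library labelled WT_CD45 2 (-0.58, edgeR adjusted p = 0.128).

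In complex III, Uqcrh, the hinge protein next to cytochrome c1, was at 582, 464 and 497 in cDC1-like and 602, 701 and 619 in cDC2-like or monocyte-derived DC-like barcodes, against 1083, 1064 and 1149.6 in Tconv-like ones. The cDC1-like values were below those of every other class, and the difference from Tconv-like barcodes was -0.92 (SE 0.10, edgeR adjusted p = 3.71e-10). Uqcrb moved the other way in cDC1-like barcodes, 255, 280.1 and 232 against 180.5, 167 and 180.4, a difference of 0.72 (SE 0.14, edgeR adjusted p = 4.59e-05) without overlap. Uqcr11 was higher in pDC-like, monocyte-like or macrophage-like, cDC1-like and cDC2-like or monocyte-derived DC-like barcodes, by 0.59, 0.56, 0.48 and 0.28. The last call was lost without TMM (0.06, edgeR adjusted p = 0.639), and the last 2 without the library labelled WT_CD45 2 (adjusted p 0.0718 and 0.157). Uqcr10 was lower in 7 of the 8 classes, most in migratory DC-like barcodes (160.1, 237 and 229 against 454, 476 and 547, -0.92, adjusted p = 8.29e-09 by edgeR). Small subunits of 1 complex thus differed in both directions within a class. Uqcrh remained the most abundant complex III gene in Tconv-like (1099) and monocyte-like or macrophage-like barcodes (774).

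In complex IV, Cox5a, a nuclear subunit on the matrix side, was at 213, 169 and 259.8 in B-like against 465, 598 and 651 in Tconv-like barcodes. The B-like values lay below those of all 8 other classes, and the difference was -1.03 (SE 0.14, edgeR adjusted p = 7.35e-08); pDC-like barcodes were lower, with a log2 difference of -0.61, adjusted p = 4.8e-06 (edgeR). Cox6a1 and Cox7a2, the isoforms outside muscle, were lower in B-like barcodes, with log2 differences of -0.50 and -0.39, whereas Cox7a2l, a factor for joining complexes III and IV, was higher by 0.47. Without TMM the Cox7a2l call was lost (0.08, edgeR adjusted p = 0.628), and without the library labelled WT_CD45 2 those of Cox7a2 and Cox7a2l (adjusted p 0.189 and 0.0534). Monocyte-like or macrophage-like barcodes had 6 of 12 complex IV subunits higher and 0 lower, in a contrast with 31.2% of all genes higher and 28.8% lower, among them Cox8a (0.54), Cox4i1 (0.42) and Cox5b (0.41). Without TMM 2 were higher and 4 lower, and Cox4i1 (0.16, edgeR adjusted p = 0.0514) and Cox5b (0.14, edgeR adjusted p = 0.135) were not called. Of the isoforms known from other tissues, Cox6b2 (testis) was called at low counts: 27.8, 17.4 and 25.4 CPM in cDC2-like or monocyte-derived DC-like and 13.1, 12 and 15.2 in monocyte-like or macrophage-like barcodes, against 5.36, 1.18 and 3.72 in Tconv-like ones. The fitted differences were 3.04 (SE 0.49, edgeR adjusted p = 1.61e-06) and 2.28 (SE 0.49, edgeR adjusted p = 9.48e-05), resting on 1 to 77 UMIs per class and library. Migratory DC-like barcodes, with a class mean of 15.9 CPM, were called higher too, by 2.62 (SE 0.62, edgeR adjusted p = 0.000461). Without WT_CD45 1, Cox6b2 was not among the genes tested. Cox4i2, the hypoxia-responsive isoform, gave UMIs in monocyte-like or macrophage-like barcodes (1.19, 1.60 and 2.56) and 0 in the 8 other classes of the CD45 libraries. That class held 4990460 to 5897201 UMIs per library, against 79947 to 1222242 in the 8 others, so their 0 UMIs do not show that Cox4i2 was absent. Cox7a1 (heart and muscle) stayed at or below 7.69 CPM.

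In complex V, Atp5g3, a second gene for the membrane ring, was lower than in Tconv-like barcodes in 6 of the 8 classes. It was at 247, 282 and 322 in Tconv-like, 134, 95.9 and 123 in B-like and 119.9, 158 and 166 in pDC-like barcodes, with differences of -0.90 (SE 0.19, edgeR adjusted p = 0.000299) and -0.95 (SE 0.14, edgeR adjusted p = 7.38e-07) and no overlap. Its paralogue Atp5g2, which encodes the same mature peptide, was at 662, 569.7 and 681 in B-like, 640.3, 591 and 617 in migratory DC-like and 652, 605 and 647 in Tconv-like barcodes. These CPM overlapped, and with TMM Atp5g2 was called higher by 0.39 and 0.31, but without TMM it was not (0.00, edgeR adjusted p = 0.992, and -0.04, edgeR adjusted p = 0.736), so its direction rests on the scaling. The third gene, Atp5g1, was lower in migratory DC-like barcodes (150.1, 187 and 210.0 against 398, 398 and 387, -0.81, adjusted p = 7.42e-06 by edgeR). Atp5h, a subunit of the peripheral stalk, was lower in B-like, pDC-like and 4 other classes, with log2 differences of -0.62 and -0.49 in the first 2. The catalytic subunit Atp5b was called higher in cDC1-like barcodes alone (0.35, adjusted p = 0.00517 by edgeR), but not there without TMM (0.18, edgeR adjusted p = 0.170), where it was lower in B-like, migratory DC-like and monocyte-like or macrophage-like barcodes. Atp5a1 was called lower in migratory DC-like barcodes alone (-0.35, adjusted p = 0.0229), not called without the library labelled WT_CD45 2 (adjusted p 0.0575), and without TMM was lower in 4 classes. The most abundant complex V gene was Atp5e in Tconv-like barcodes (1057) and Atp5l in monocyte-like or macrophage-like barcodes (994).

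The number of members called depended on the libraries used. Without the library labelled WT_CD45 2 it was 25 instead of 34 in B-like, 21 instead of 36 in pDC-like, 14 instead of 29 in cDC1-like and 25 instead of 36 in cDC2-like or monocyte-derived DC-like barcodes. It was 30 instead of 43 in migratory DC-like, 22 instead of 43 in monocyte-like or macrophage-like, 2 instead of 3 in NK-like and 9 in both cases in Treg-like barcodes. Of the main calls, 24 in B-like, 21 in pDC-like, 11 in cDC1-like, 21 in cDC2-like or monocyte-derived DC-like, 29 in migratory DC-like, 21 in monocyte-like or macrophage-like, 0 in NK-like and 6 in Treg-like barcodes remained, and none of the others had the opposite sign. Without WT_CD45 1 these counts were 25, 29, 18, 25, 27, 30, 1 and 3, and without Lag3KO_CD45 1 they were 22, 19, 18, 21, 29, 26, 1 and 3.

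Treg-like and Tconv-like barcodes of all 7 libraries were compared with the library as a block. The 15 Treg markers summed to 5205 to 6330 CPM in Treg-like barcodes of the CD4 and 6389 to 7640 of the CD45 libraries. Tconv-like barcodes still held 1561 to 2309 and 1363 to 1808 of them, and their part was not tested. Of 83 nuclear members tested 1 was higher and 4 lower in Treg-like barcodes (median -0.11), and of 13 mt- members 0 were higher and 7 lower (median -0.22), beside 12.8% of 8750 genes called, 6.59% higher and 6.23% lower. Ndufa4 was the member higher, at 383, 383, 347 and 363 in the CD4 libraries and 452, 503 and 595 in the CD45 libraries. Tconv-like barcodes held 313, 309, 263 and 318 in the CD4 libraries and 325, 384 and 441 in the CD45 libraries, less in each of the 7 libraries, and the difference was 0.26 (SE 0.07, edgeR adjusted p = 0.0110). Cox5a, Atp5g1, Atp5h and Ndufs5 were lower, with log2 differences of -0.39 (SE 0.08, edgeR adjusted p = 0.00144), -0.38, -0.34 and -0.27. Without TMM 2 nuclear members were higher and 3 lower and 2 mt- members lower, beside 8.75% of genes higher and 4.33% lower. All 12 calls made with TMM were kept without the library labelled WT_CD45 2.

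The largest mt- difference was that of mt-Nd1, at 2241, 1876, 2157 and 1804 in the CD4 libraries and 1468, 1567 and 2091 in the CD45 libraries in Treg-like barcodes. In Tconv-like barcodes it was at 2628, 2438, 2544 and 2265 in the CD4 libraries and 1928, 2036 and 2059 in the CD45 libraries, higher in 6 of 7 libraries with Lag3KO_CD45 1 as the exception, and the difference was -0.36 (SE 0.06, edgeR adjusted p = 0.000160). mt-Nd2, mt-Nd3, mt-Nd4, mt-Cytb, mt-Atp6 and mt-Co3 were lower, with log2 differences of -0.33, -0.31, -0.24, -0.23, -0.24 and -0.22. All of these but mt-Nd2 lost the call without TMM, with adjusted p from 0.0637 (mt-Co3) to 0.0927 (mt-Nd3). mt-Co1 was not called: Treg-like barcodes were above Tconv-like ones in each of the 4 CD4 libraries (6236, 5251, 6408 and 5814 against 5291, 4943, 5556 and 5488), and in the CD45 libraries below them in 2 of 3 (3523, 4535 and 4181 against 4453, 4459 and 4632). Summed mt- levels also went apart by selection: in the CD45 libraries Treg-like barcodes held 16131, 19094 and 18539.7, below 21183, 21550.3 and 21419.5 in each library, and in the CD4 libraries 30123, 25594, 29252 and 26905 against 29233, 27257, 28761 and 27936, higher in 2 and lower in 2. Without the limit on mt- UMIs per barcode, the library labelled WT_CD45 2 held 21766 in Treg-like against 21679 in Tconv-like barcodes, so the order turned there. That setting also clustered and named the barcodes anew, with 74 instead of 70 Treg-like barcodes in this library. The limit alone was not tested. A difference between the 2 selections was not tested for this contrast.

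In the 3 CD45 libraries alone, 6 of 11 mt- members were lower in Treg-like barcodes and 1 of 80 nuclear members was higher and 2 lower (8.32% of genes called, 3.88% higher and 4.45% lower), or 7, 0 and 2 with mt- and ribosomal protein genes left out of the scaling. Without the limit on mt- UMIs per barcode 5 members were called instead of 9. Sdhb was the member higher, 329, 258 and 334 against 198, 213 and 212, with 0.44 (SE 0.14, edgeR adjusted p = 0.0426), a call lost without any 1 of the 3 libraries (adjusted p 0.16 without the library labelled WT_CD45 2, 0.25 without Lag3KO_CD45 1 and 0.27 without WT_CD45 1). Cox7a2l and Atp5h were lower, with log2 differences of -0.51 and -0.45, and both calls were lost without Lag3KO_CD45 1, with adjusted p of 0.21 and 0.30. mt-Atp6 was lower, with a log2 difference of -0.44 (SE 0.09, edgeR adjusted p = 0.000386), 3148, 3574 and 3319.8 against 4492, 4214 and 4232, without overlap, and mt-Nd2, with a log2 difference of -0.56, a call lost without any 1 library (adjusted p 0.055 to 0.12). In these libraries 10 of 20 cell cycle genes were higher in Treg-like barcodes and 0 lower; their part was not tested.

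Microglia-like barcodes, the resident macrophages of the tissue, were compared with monocyte-like or macrophage-like barcodes in the 4 CD4 libraries, a choice made after the class sizes were seen. Of 76 nuclear members 4 were higher and 25 lower in microglia-like barcodes (median -0.24), and of 11 mt- members 5 were higher and 2 lower (median 0.31), with 42.8% of 3923 genes called, 21.3% higher and 21.5% lower. Complex IV had 8 of 11 nuclear subunits lower and 0 higher, complex V 5 of 15 lower, complex III 3 of 8 lower and complex I 9 of 36 lower and 4 higher. Without TMM, where the median over all genes was 0.17, 7 nuclear members were higher and 10 lower and 6 mt- members higher and 1 lower (27.7% of genes higher and 16.4% lower), with complex IV at 3 of 11 lower and complex I at 4 lower and 5 higher. Atp5l, a membrane subunit of the ATP synthase, was at 540.5, 517, 708 and 570.3 in microglia-like and 1073, 980.2, 992 and 972 in monocyte-like or macrophage-like barcodes. All 4 microglia-like values lay below, and the difference was -0.92 (SE 0.15, edgeR adjusted p = 1.88e-05). Ndufa6, Cox5b and Ndufb7 were lower, with log2 differences of -0.79, -0.71 and -0.70, and Ndufb3, with a log2 difference of -0.72 with edgeR, where DESeq2 gave an adjusted p of 0.097.

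Ndufa4 was higher in microglia-like barcodes, 446, 364, 391 and 402 against 192, 213, 179 and 209, without overlap, a difference of 0.88 (SE 0.16, edgeR adjusted p = 0.000108). Ndufa12 and Ndufa9 were higher by 0.71 and 0.82, and both calls were lost with DESeq2 (adjusted p 0.17 and 0.25), that of Ndufa9 also without Lag3KO_CD4 2 (adjusted p = 0.062). The mt- members went both ways: mt-Nd3, mt-Nd2, mt-Nd1, mt-Nd4 and mt-Cytb were higher by 0.88, 0.74, 0.63, 0.50 and 0.52, while mt-Co1 and mt-Nd5 were lower, with log2 differences of -0.55 and -0.53, the latter not called without TMM (-0.35, edgeR adjusted p = 0.175). mt-Nd1 was at 3419, 3072, 4248 and 4318 against 2545, 1939, 2148 and 2121, and mt-Co1 at 4418, 3887, 5130.3 and 3829 against 6192, 5562, 5770.0 and 5192; in neither did the classes overlap. The count of 36 members called fell to 15 with DESeq2 and to 22 without Lag3KO_CD4 2. Microglia markers summed to 9895 to 15943 in microglia-like and 213 to 579 in monocyte-like or macrophage-like barcodes, all 15 tested cell cycle genes were higher in microglia-like barcodes, and their part was not tested.

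Neutrophil-like barcodes of the CD4 libraries had the lowest nuclear sum of any class, 16058, 15696, 15546 and 15119 CPM, against 26232, 27376, 27256 and 26135 in monocyte-like or macrophage-like barcodes. Their mt- sum, 24371, 24455, 27603 and 28465, lay near that of the other classes, so the ratio of mt- to nuclear UMIs was 1.68 ± 0.175 (SD, n = 4). Cox4i1 was at 667, 841, 635 and 803 there against 1464, 1435, 1436 and 1294, and Uqcrh at 475, 397, 513 and 535 against 665, 568, 661 and 504; these levels have no test. Ribosomal protein genes took 6.34% of neutrophil-like UMIs against 15.4% in monocyte-like or macrophage-like barcodes, and without the limit on mt- UMIs per barcode the ratio was 1.77 to 2.32. The high ratio was not seen in WT_CD45 1, the only CD45 library with at least 20 neutrophil-like barcodes. Its 24 held 19955 (nuclear) and 12110 (mt-), a ratio of 0.61. Without the limit on mt- UMIs per barcode, 43 barcodes of WT_CD45 1 had a ratio of 0.89. Monocyte or macrophage markers summed to 28553 CPM in the 24 barcodes, against 8057 to 9527 in neutrophil-like barcodes of the CD4 libraries. Neutrophil markers summed to 210261 against 164322 to 232124. The part of these markers in the ratio was not tested. Neutrophil-like barcodes had medians of 858 to 1200.5 UMIs in the CD4 libraries and 9139.5 in WT_CD45 1.

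Proliferation was examined within CD4 T-like barcodes thinned to 1500 UMIs each, as barcodes with at least 4 UMIs of 28 cell cycle genes (7 to 54 per library) against those with 0 (107 to 770). These are ranges of a count, not cell types, and barcodes under 1500 UMIs were left out (156 to 409 per CD4 library, 0 per CD45 library). Of 72 nuclear members 9 were higher and 3 lower in cycling barcodes (median 0.07), and of 10 mt- members 0 were higher and 4 lower (median -0.32), beside 27.8% of 2783 genes called, 13% higher and 14.8% lower. Without TMM 15 nuclear members were higher and 3 lower and 2 mt- members lower (16.9% of genes higher and 8.7% lower). mt-Co1 was at 4419.8, 4053, 4783, 4293, 3809.5, 4721 and 3923 in cycling barcodes (the 4 CD4 libraries first, then the 3 CD45 libraries) against 5760.1, 5134, 5899.9, 5639, 4399, 4853 and 5171. The cycling value was the lower one in each of the 7 libraries, and the difference was -0.47 (SE 0.08, edgeR adjusted p = 7.1e-07). mt-Nd4, mt-Co3 and mt-Atp6 were lower, with log2 differences of -0.46, -0.29 and -0.25. The calls of mt-Co3 and mt-Atp6 were lost without TMM (-0.12, edgeR adjusted p = 0.136, and -0.08, edgeR adjusted p = 0.322), and that of mt-Nd4 without the limit on mt- UMIs per barcode (-0.20, adjusted p = 0.205).

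The summed nuclear level of cycling barcodes was 27787 to 33048 against 24683 to 29259 CPM in the others. The summed mt- level was 26790.1, 22240.0, 26017, 22480.0, 21714, 23946 and 20667 in cycling barcodes against 29695, 27116, 29324, 27618, 20809, 21796 and 21115. It was lower in each CD4 library and in Lag3KO_CD45 1, and higher in the other 2 CD45 libraries. Cox7a2l, Ndufa6 and Uqcrh were lower in cycling barcodes, with log2 differences of -0.80 (SE 0.13, edgeR adjusted p = 2.38e-07), -0.89 (SE 0.17, edgeR adjusted p = 5.73e-06) and -0.57 (SE 0.12, edgeR adjusted p = 2.17e-05). Cox5a was higher by 0.52 (SE 0.14, edgeR adjusted p = 0.00178), but not called without the filter on low counts (0.23, adjusted p = 0.50) or without the limit on mt- UMIs (0.25, adjusted p = 0.21). Ndufc2, Atp5b, Atp5g3 and Atp5j were higher by 0.58, 0.44, 0.44 and 0.42, and each lost its call without the filter on low counts and without 1 or more single libraries, among them Lag3KO_CD45 1 for Ndufc2, Atp5b and Atp5j (adjusted p 0.0555, 0.182 and 0.0585) and Lag3KO_CD4 2 for Atp5b, Atp5g3 and Atp5j (0.0534, 0.22 and 0.136). Ndufc2 and Atp5g3 were also not called without WT_CD4 1 (0.0547 and 0.0599) or Lag3KO_CD4 1 (0.0529 and 0.245), Atp5j without Lag3KO_CD4 1 (0.0527) and Ndufc2 without WT_CD4 2 (0.12). The directions of these 5 genes were kept in each of these settings.

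The comparison of genotypes asks whether loss of Lag3 goes with a different expression of the pathway. No member was called in any of the 16 genotype comparisons, by edgeR or by DESeq2. Over both selections (4 libraries labelled WT, among them the one whose Lag3 UMIs go against its label, and 3 Lag3KO libraries, with selection as a term), 1 of 96 members tested in Tconv-like barcodes and 0 of 94 in Treg-like barcodes had an unadjusted p under 0.05, against 3.30% and 3.58% of all genes; 0% and 0.0555% of all genes were called. In the CD4 libraries these counts were 0 of 98 and 0 of 95, against 2.48% and 3.47% of all genes at that p (0.0308% and 0.138% called). In the CD45 libraries they were 5 of 98 and 6 of 95, against 5.08% and 6.13% of all genes (0% and 0% called), so the members' shares lay near the background. The test of the difference between the 2 selections called 0 members in either class (0% and 0.0378% of genes). Without the library labelled WT_CD45 2 the counts of calls over both selections were 0 as well.

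Differences of single members did not exceed the spread between libraries by the test. Contrasts within the CD45 libraries set 1 Lag3KO library against 2 labelled WT, among them the library with 4 Lag3 UMIs. If that label is wrong, these contrasts do not compare the genotypes as named. Ndufb10 had the smallest p in Tconv-like barcodes over both selections (0.26, SE 0.12, edgeR adjusted p = 1.00) and Ndufs8 in Treg-like barcodes (0.32, SE 0.16, edgeR adjusted p = 1.00). Larger differences stood where 1 Lag3KO library was set against 2: Ndufs3 in Treg-like barcodes of the CD45 libraries (1.05, SE 0.33, edgeR adjusted p = 0.797), and mt-Nd2 in Tconv-like barcodes of the same libraries (-0.44, SE 0.18, edgeR adjusted p = 0.902). In the other CD45 classes 0 members were called, where 0 to 1.03% of genes were (0.437% in B-like, 0% in NK-like, 0.335% in cDC1-like, 0% in cDC2-like or monocyte-derived DC-like, 1.03% in migratory DC-like, 0.435% in pDC-like and 0.00975% in monocyte-like or macrophage-like barcodes); 1 to 4 members per class had an unadjusted p under 0.05, where 4.25% to 6.69% of all genes did.

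The summed nuclear level was highest in Lag3KO_CD45 1 in each of the 9 CD45 classes, above WT_CD45 1 and the library labelled WT_CD45 2, for example 26003, 25585 and 27636 in monocyte-like or macrophage-like and 27499.5, 28929 and 30821 in Tconv-like barcodes. This is 1 library, with no test. The summed mt- level was not highest there in the B-like, NK-like, Treg-like and Tconv-like classes. In the CD4 libraries Tconv-like and Treg-like sums overlapped between genotypes (26483, 25930.0, 27741 and 25463, and 25007, 24887, 25401 and 24860.5).

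Microglia-like barcodes of the CD4 libraries, in a genotype fit added after the data were seen, had positive differences (Lag3KO minus WT) for most members. Their nuclear sum was 22694, 22407, 25929.8 and 25045 and their mt- sum 29834, 27816, 35940.4 and 32227, in both cases higher in the 2 Lag3KO libraries than in the 2 WT libraries without overlap. Of 75 nuclear members 62 had a positive difference and of 11 mt- members 10, with medians of 0.18 and 0.21, beside 1781 of 3549 genes and a median of 0.00 over all genes. None was called (0.338% of genes were), and 8 of 86 members had an unadjusted p under 0.05, against 8.00% of all genes. Ndufb3, the member with the smallest p, was at 75.4, 72.8, 140.5 and 139 and differed by 0.90 (SE 0.33, edgeR adjusted p = 0.390). Counts of members are no test, since all members come from the same libraries. The microglia-like class held 60, 46, 113 and 101 barcodes. Ribosomal protein genes took 14.8%, 14.4%, 16.8% and 15.5% of its UMIs, and their part was not tested. In neutrophil-like barcodes of the same libraries 12 of 44 nuclear members had a positive difference and 9 of 10 mt- members, with medians of -0.13 and 0.15, and their mt- sum (24371, 24455, 27603 and 28465) was also higher in both Lag3KO libraries without overlap. In the monocyte-like or macrophage-like class of the CD45 libraries 72 of 87 nuclear members had one, beside 4940 of 10261 genes. Monocyte-like or macrophage-like barcodes of the CD4 libraries had 1 of 84 members at an unadjusted p under 0.05, against 4.48% of all genes (0.308% called), and neutrophil-like barcodes 3 of 54, against 13.2% (0.367% called), with Ndufv3 at -1.25 (SE 0.40, edgeR adjusted p = 0.271).

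**Figure D4:**
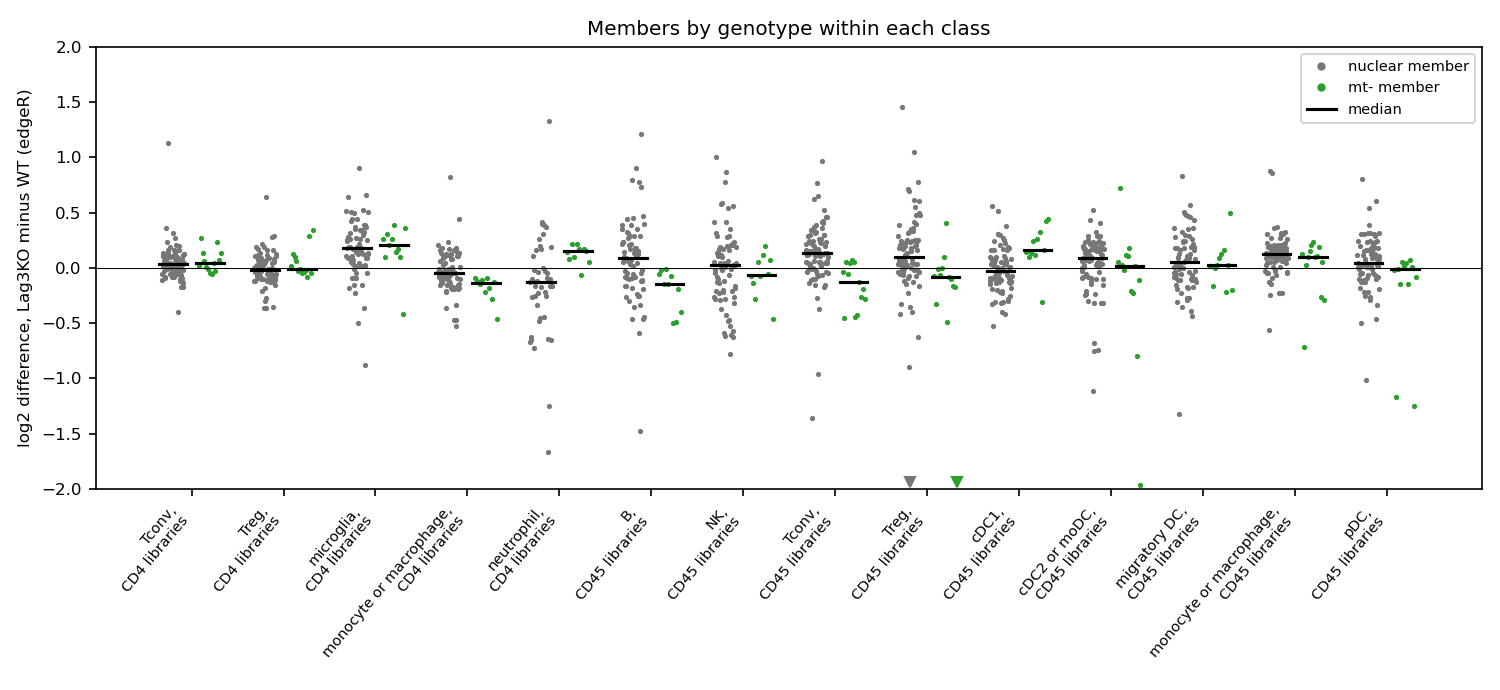
Log2 difference between Lag3KO and WT libraries (edgeR) for each member tested, by class and selection; grey points are nuclear members, green points mt- members, bars medians, and the 2 triangles mark members of Treg-like barcodes of the CD45 libraries beyond the axis (Ndufaf4 at -2.74 and mt-Nd6 at -6.78, at low counts). The medians of microglia-like barcodes are 0.18 and 0.21, and no member was called in any column.

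Other genes of the pathway were tested in the same fits. Of the 8 carriers and transporters, Cycs, the mobile electron carrier cytochrome c, was higher in cDC1-like barcodes by 1.51 (SE 0.12, edgeR adjusted p = 2.22e-13) and in cDC2-like or monocyte-derived DC-like barcodes by 0.81. In cDC1-like barcodes 3 of 8 were higher and 0 lower, where 23.9% of all genes were higher. Migratory DC-like barcodes had 4 higher, Slc25a3 (the phosphate carrier), Vdac1, Vdac2 and Vdac3, and 1 lower, the ADP/ATP carrier Slc25a5 (-0.74), and Vdac1 and Vdac3 were not called without TMM (adjusted p 0.527 and 0.0835). Slc25a4, another ADP/ATP carrier, was lower in monocyte-like or macrophage-like barcodes (-0.74) and higher in microglia-like than in monocyte-like or macrophage-like barcodes (1.12, SE 0.23, edgeR adjusted p = 0.000342).

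Of the 33 assembly factors 17 were tested in the CD45 libraries. Cox17, the copper chaperone of complex IV, was lower than in Tconv-like barcodes in 7 of the 8 classes, most in pDC-like ones (-1.16, SE 0.12, edgeR adjusted p = 1.15e-10), and higher in migratory DC-like barcodes (0.63, SE 0.10, edgeR adjusted p = 9.69e-07). Cox10, needed for the haem of complex IV, was lower in 7 classes, from -1.30 in Treg-like to -2.72 in migratory DC-like barcodes, and Cox20 in 5. Without TMM the Treg-like calls of Cox17 and Cox10 were lost (adjusted p 0.0689 and 0.0619). Sdhaf1, a complex II assembly factor, was higher in migratory DC-like barcodes by 2.21 (SE 0.19, edgeR adjusted p = 6.52e-13). Of 13 tricarboxylic acid cycle genes, all tested, Idh3a, a catalytic subunit of NAD-dependent isocitrate dehydrogenase, was lower in 6 of the 8 classes, most in B-like barcodes (-2.69, SE 0.50, edgeR adjusted p = 4.45e-05), while Fh1 (fumarase) was higher in cDC1-like and cDC2-like or monocyte-derived DC-like barcodes by 0.87 and 1.84. Over all 7 libraries Treg-like barcodes had Idh3a and Fh1 lower (-0.65 and -0.49) and 0 of 13 higher. The Fh1 call was lost without TMM (adjusted p 0.0932).

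Of 14 genes for mitochondrial gene expression and biogenesis 6 were tested in the CD45 libraries. In B-like barcodes, where 10 mt- members were higher, Tfam differed by 0.45 (SE 0.47, edgeR adjusted p = 0.540) and Slirp by 0.52 (SE 0.25, edgeR adjusted p = 0.130). Slirp, which stabilises mitochondrial mRNA, was higher in pDC-like and in all 4 myeloid-like and conventional dendritic cell-like classes, from 0.59 to 1.21, and Esrra, a nuclear receptor that activates respiratory genes, in the last 4, from 1.11 to 1.49. Without TMM Esrra was not called in cDC1-like and migratory DC-like barcodes (adjusted p 0.0646 and 0.0754). Tfam, the packaging and transcription factor of mitochondrial DNA, was lower in migratory DC-like barcodes (-1.16, SE 0.47, edgeR adjusted p = 0.0350), a call lost without the library labelled WT_CD45 2 (adjusted p 0.169), as was that of Slirp in pDC-like barcodes (0.149).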

How the data were processed

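The deposited counts were UMI counts per gene and barcode, one matrix per library, with 27998 genes in the CD4 and 28692 in the CD45 libraries. Cell Ranger, Seurat and the GRCm38/mm10 build are named in the submitters' processing notes; no source used here states further settings. Barcodes with at least 200 genes and at most 10% mt- UMIs were kept, 15 to 51 doublets per library were removed, and barcodes holding both T and myeloid markers (67 to 105 per CD4 and 498 to 781 per CD45 library) were set apart. Barcodes were clustered per selection without members (2000 variable genes, 30 components, 15 neighbours, Leiden resolution 1, leidenalg 0.10.2) and named from marker lists. Clusters with mostly mixed barcodes, an unnamed progenitor cluster and a Treg rule of 2 instead of 3 leading markers were decided after clusters were seen, the last knowing that it brought Treg shares closer to an earlier account.

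UMIs were summed per library and class of at least 20 barcodes and tested with edgeR 4.0.16 (TMM, filterByExpr, quasi-likelihood) in R 4.3.3, p-values adjusted by Benjamini-Hochberg over all genes tested; the code was tested on simulated data. Summed levels have no test. Named genes were every mt- member, up to 5 called members per comparison and direction with the largest difference (or the smallest p where none was called), isoforms, the most abundant, least abundant, most and least variable members; other members given beside them were chosen after their values were seen. Alternatives were DESeq2 1.42.0, no filter, another scaling, no TMM, no mt- limit and leaving out libraries. Without the mt- limit barcodes were clustered and named anew, so class membership changed too (311 instead of 509 Treg-like barcodes in WT_CD4 1). The members and lists were chosen with earlier results of these data known.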

Additional observations from a re-analysis of the deposited data

How the results depend on the processing

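No call of a gene named by the rule changed sign under the alternatives run, and the genotype comparisons over both selections, in the CD4 and in the CD45 libraries gave 0 members called under each alternative run. Summed over the 8 contrasts with Tconv-like barcodes, 233 member calls became 208 to 305 under the other settings (305 without TMM) and 139 to 158 when a library was left out (139 without Lag3KO_CD45 1, 148 without the library labelled WT_CD45 2). For Treg-like against Tconv-like barcodes 12 calls became 10 to 17 without a library and 7 to 17 otherwise, with 7 without TMM. For microglia-like against monocyte-like or macrophage-like barcodes 36 calls became 15 with DESeq2 and 22 to 25 without a library (22 without Lag3KO_CD4 2). For cycling barcodes 16 calls became 10 with DESeq2 and 11 to 19 without a library, and 20 without TMM. The count of classes whose nuclear sum exceeded that of Tconv-like barcodes in each library was 1 (Treg-like) and became 0 with mt- and ribosomal protein genes left out of the denominator and 0 with the median over barcodes, while that for the mt- sum stayed at 2. Of 95 calls of named genes, 62 held in every setting refitted and 33 were lost in at least 1. No paired analysis was possible because replicate numbers are only accession-order names; contrasts between classes used the library as a block. Leaving out a library within the CD45 genotype contrasts of single classes was not run, since no residual degrees of freedom remain. The microglia contrast in CD4 libraries, genotype fits in 3 classes of CD4 libraries, the test between selections, the 3-marker Treg rule, the fits without TMM and leaving out libraries for summed levels were added after the data were seen. Depth limits what can be seen in small classes: NK-like barcodes numbered 22 to 44 and Treg-like 30 to 70 per CD45 library.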
